A study of Mus musculus with 20 samples.

Results

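The genes described here are 10 NRF2 antioxidant genes, taken by symbol from the count table of a study of bone marrow-derived macrophages. They are *Nfe2l2*, *Keap1*, *Hmox1*, *Nqo1*, *Gclc*, *Gclm*, *Slc7a11*, *Txnrd1*, *Srxn1* and *Sod2*, 10 of 21963 gene entries, and all 10 were among the 11707 genes that passed the filter on low counts. The study asked how the mitochondrial Ca2+ uniporter, whose pore is made by *Mcu*, and Ca2+ in the cytosol bear on the transcript response of macrophages to a fungal stimulus. RNA was sequenced in 20 libraries of macrophages grown from the bone marrow of C57BL/6 mice in medium conditioned by L929 cells, a mouse fibroblast line. There were 4 WT untreated libraries, 5 of WT cells given zymosan for 3 h, 4 of WT cells loaded with BAPTA-AM and given zymosan for 3 h, 4 untreated *Mcu*-/- libraries and 3 *Mcu*-/- libraries with zymosan for 3 h. Zymosan is a preparation of yeast cell wall that macrophages bind and engulf, and BAPTA-AM is a cell-permeant chelator of intracellular Ca2+. The *Mcu*-/- mice carried floxed *Mcu* alleles and Cre driven by the Cx3cr1 promoter, which is active in cells of the monocyte lineage, so the deletion in the culture depends on which cells expressed Cre. Macrophages of both genotypes came from mice of 15 to 25 weeks, and no BAPTA-AM group without zymosan and no BAPTA-AM group of *Mcu*-/- cells was analysed here. The labels call the libraries of a group biological replicates and do not say whether each came from a separate animal, so the p-values below measure the spread between these libraries.

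NRF2, the protein of *Nfe2l2*, is a transcription factor that KEAP1 holds in the cytosol and marks for degradation while the cell is at rest. When reactive cysteines of KEAP1 are modified by electrophiles or oxidants, NRF2 accumulates, pairs with small MAF proteins in the nucleus and binds antioxidant response elements near genes for glutathione synthesis, thioredoxin reduction, heme breakdown and quinone detoxification. In macrophages the same genes also respond to inflammatory signals, and *Sod2*, the superoxide dismutase of the mitochondrial matrix, is a well known NF-kB target.

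In the RefSeq promoter table, on build GRCm38.p6, 8 of the 10 genes had an entry, and *Hmox1* and *Gclc* had none. The 250 bases before each listed start were searched on both strands for the core of the antioxidant response element, TGACNNNGC, and for the AP-1 element TGAGTCA, which on its other strand opens with the first letters of the core, so that matches to both can overlap. The core was found upstream of 3 of the 8 genes and in 11.5% of 27025 genes of the table, and the AP-1 element upstream of 1 of the 8 and in 5.16% of genes. The sequences that hold either are shown to place these letters before the starts of genes whose counts follow: the core in *Gclm*, *Nfe2l2* and *Txnrd1*, and the AP-1 element alone in *Srxn1*. They are written 5′ to 3′ in the direction of the transcript, in lower case with each match to either element in capitals, and end 1 base before the start. The windows are chr3:122245307-122245556 on the plus strand for *Gclm*, chr2:75704664-75704913 on the minus strand for *Nfe2l2*, chr10:82858956-82859205 on the plus strand for 1 of the starts of *Txnrd1*, and chr2:152105274-152105523 on the plus strand for *Srxn1*.
*Gclm*: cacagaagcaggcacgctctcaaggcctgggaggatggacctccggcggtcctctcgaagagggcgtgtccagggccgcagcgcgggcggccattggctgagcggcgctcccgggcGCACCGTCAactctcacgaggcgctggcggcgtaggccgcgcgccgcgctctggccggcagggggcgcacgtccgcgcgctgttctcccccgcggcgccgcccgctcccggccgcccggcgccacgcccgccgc
*Nfe2l2*: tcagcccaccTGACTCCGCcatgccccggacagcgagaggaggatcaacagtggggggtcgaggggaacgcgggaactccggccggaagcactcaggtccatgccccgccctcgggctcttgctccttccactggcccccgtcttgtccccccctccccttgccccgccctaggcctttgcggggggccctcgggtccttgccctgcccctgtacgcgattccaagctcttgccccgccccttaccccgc
*Txnrd1*: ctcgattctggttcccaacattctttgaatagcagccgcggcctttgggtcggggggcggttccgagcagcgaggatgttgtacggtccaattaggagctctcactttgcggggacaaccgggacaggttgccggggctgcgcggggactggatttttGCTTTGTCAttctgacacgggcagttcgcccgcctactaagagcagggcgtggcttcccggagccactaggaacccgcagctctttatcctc
*Srxn1*: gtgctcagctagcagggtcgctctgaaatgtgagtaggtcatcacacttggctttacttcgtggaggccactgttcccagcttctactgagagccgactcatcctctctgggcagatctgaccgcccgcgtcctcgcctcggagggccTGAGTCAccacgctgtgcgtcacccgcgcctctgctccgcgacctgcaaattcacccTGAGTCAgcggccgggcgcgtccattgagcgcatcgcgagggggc
The match began at position −134 from the start in *Gclm*, at −240 in *Nfe2l2*, at −92 in *Txnrd1*, and at −102 and −45 in *Srxn1*. The *Srxn1* match at −45 is followed by gc, and with these bases it differs from the searched core only by G in place of C. The NF-kB element (GGG and CC with 5 bases of any kind between them) was found upstream of 6 of the 8 genes and in 48.7% of genes of the table, on either strand. A match of letters describes the window and does not show that a factor bound there.

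On build mm10 with the GENCODE M21 annotation, *Nfe2l2* (ENSMUSG00000015839) lies at chr2:75675513-75704641 and its inhibitor *Keap1* (ENSMUSG00000003308) at chr9:21229730-21239361, both on the minus strand. Of the enzymes, *Hmox1* (ENSMUSG00000005413) lies at chr8:75093621-75100589 on the plus strand and *Nqo1* (ENSMUSG00000003849) at chr8:107388225-107403206 on the minus strand. The subunits of glutamate-cysteine ligase are *Gclc* (ENSMUSG00000032350), at chr9:77754535-77794485, and *Gclm* (ENSMUSG00000028124), at chr3:122245557-122270732, both on the plus strand. The cystine transporter gene *Slc7a11* (ENSMUSG00000027737) lies at chr3:49892526-50443614 on the minus strand. *Txnrd1* (ENSMUSG00000020250) is at chr10:82833951-82897712, *Srxn1* (ENSMUSG00000032802) at chr2:152105516-152111376 and *Sod2* (ENSMUSG00000006818) at chr17:13006846-13040063, all on the plus strand. Exons of *Keap1* share 510 bases with the antisense gene *Gm16754*, and exons of *Gclm* share 296 bases with *Gm17494* and the pseudogene *Gm6061*. Whether reads were counted by strand is not given in the sources used here, so reads of those stretches cannot be told apart.

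The libraries held 14.4 to 24.0 M counts on genes. Below, CPM is the usual depth-scaled count, taken on library sizes corrected with TMM factors, and a gene is called where the Benjamini-Hochberg adjusted p of edgeR's quasi-likelihood test over all genes tested was under 0.05. *Mcu* lay at 2.63 to 4.05 CPM in the 7 *Mcu*-/- libraries against 6.10 to 9.55 in all 13 of WT. All 10 macrophage markers were detected, and 4 libraries, untreated *Mcu*-/- replicate 4 and the 3 *Mcu*-/- libraries with zymosan, stood apart from the other 16. In the 4, mitochondrially encoded genes took 0.499% to 0.621% of counts against 1.15% to 1.55% in the 16, and the 10 macrophage markers summed to 11039 to 12510 CPM against 15075 to 17460. The macrophage genes *Lyz2* and *Itgam* had 2823 to 3280 and 239 to 286 CPM against 6867 to 8390 and 705 to 887, while *Cd68* and *Fcgr1* had 971 to 1175 and 518 to 586 against 209 to 321 and 106 to 239.8. The 10 markers did not move together. *Adgre1* and *Mrc1* were also lower in the 4. Higher were *Mertk*, *Csf1r* (1062 to 1270 against 504 to 879 CPM), *C1qa* (798 to 872 against 371 to 491) and *C1qb* (1634 to 2014 against 1084 to 1380). The 9 fibroblast markers summed to 52.8 to 93.8 CPM against 4.53 to 16.1, with *Col1a1* at 13.0 to 25.6 against 0.329 to 2.50 and *Lum* at 0 in the 4. The labels give no batch, and in *Mcu*-/- cells with zymosan whatever set these libraries apart cannot be told apart from genotype with zymosan. The part of these differences in the results below was not tested. Because replicate 4 also widened the spread that all comparisons share (biological coefficient of variation 12.4% with it and 3.56% without it), each comparison is also given from a fit without that library.

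**Figure D1:**
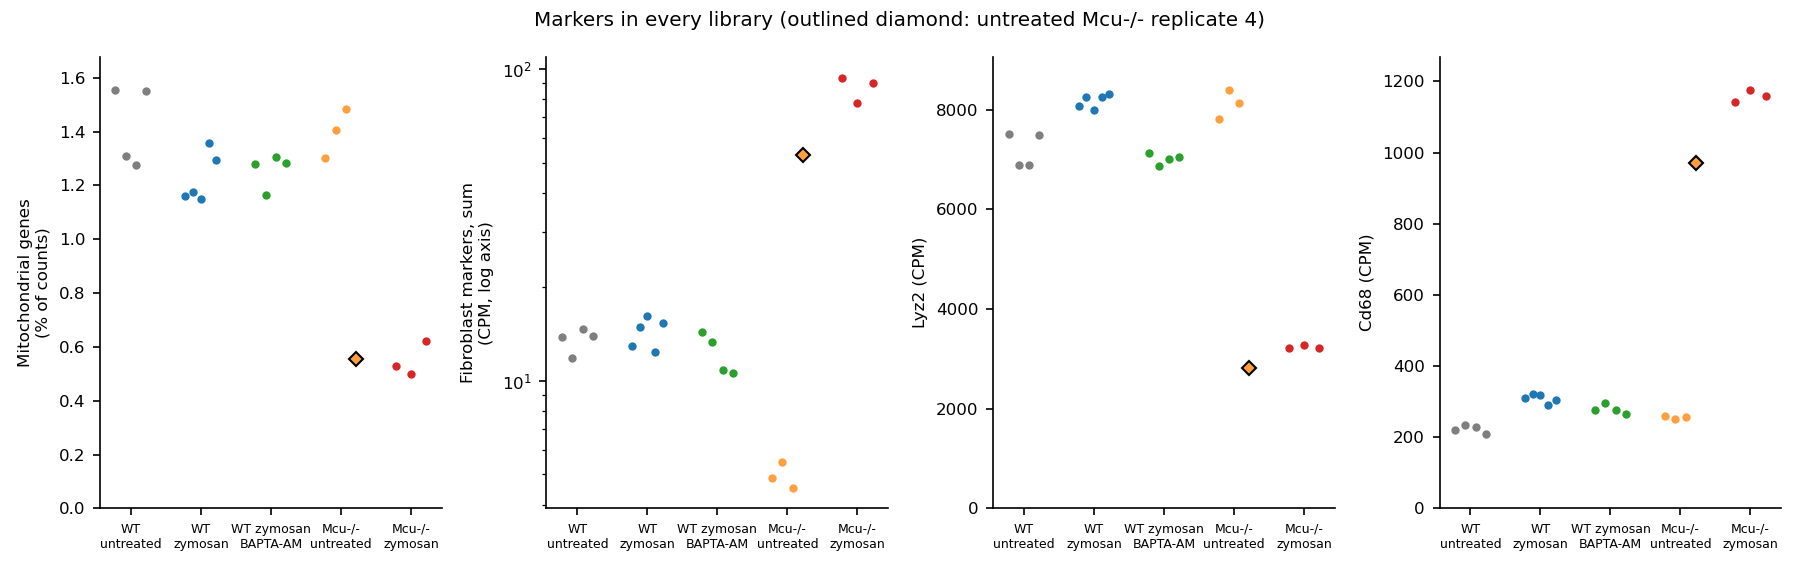
Marker values in each of the 20 libraries by group, with untreated Mcu-/- replicate 4 as an outlined diamond: each panel names its unit, either percent of counts or CPM. Replicate 4 lies with the 3 Mcu-/- zymosan libraries, for example at 0.499% to 0.621% of counts on mitochondrially encoded genes against 1.15% to 1.55% in the other 16.

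In resting WT macrophages the heme oxygenase gene *Hmox1* was the most abundant of the 10 per length and the cystine transporter gene *Slc7a11* the least. In RPKM, the CPM of a gene divided by its exonic length in kilobases and given as mean ± SD, the 4 WT untreated libraries had 243 ± 5.83 for *Hmox1*, 57.0 ± 1.04 for *Gclm*, 38.3 ± 0.597 for *Nfe2l2*, 30.3 ± 0.474 for *Txnrd1* and 26.2 ± 0.752 for *Srxn1*. Below these came *Sod2* at 13.5 ± 0.495, *Gclc* at 11.6 ± 0.269, *Keap1* at 8.98 ± 0.443, *Nqo1* at 0.725 ± 0.175 and *Slc7a11* at 0.190 ± 0.0221 RPKM. No pair of neighbours in that order overlapped between libraries. With zymosan, *Hmox1* at 675 ± 39.1 RPKM was still highest in the 5 WT libraries, *Txnrd1* at 105 ± 6.04 stood in the second place, *Gclm* had moved down to 22.2 ± 0.862, and *Nqo1* at 0.797 ± 0.247 was lowest. *Slc7a11* at 10.9 ± 0.659 RPKM had reached *Gclc* at 10.4 ± 0.701, and these neighbours overlapped, as did *Sod2* at 61.1 ± 1.26 and *Nfe2l2* at 57.8 ± 1.87. In the 4 libraries with BAPTA-AM and zymosan no neighbours overlapped, and *Srxn1* at 78.4 ± 2.96 and *Nfe2l2* at 68.1 ± 3.21 RPKM stood above *Sod2* at 48.0 ± 0.838. In the 3 *Mcu*-/- libraries with zymosan the order began with *Hmox1*, *Txnrd1* at 173 ± 2.30 RPKM and *Srxn1* at 160.3 ± 3.74, and ended with *Nqo1* at 3.00 ± 0.691, and only *Keap1* at 18.0 ± 0.548 and *Gclc* at 17.5 ± 0.334 overlapped. In the 4 untreated *Mcu*-/- libraries *Hmox1* at 423 ± 337 RPKM led and *Slc7a11* at 0.392 ± 0.406 came last, with 6 of the 9 pairs of neighbours overlapping and SDs set by replicate 4.

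**Figure D2:**
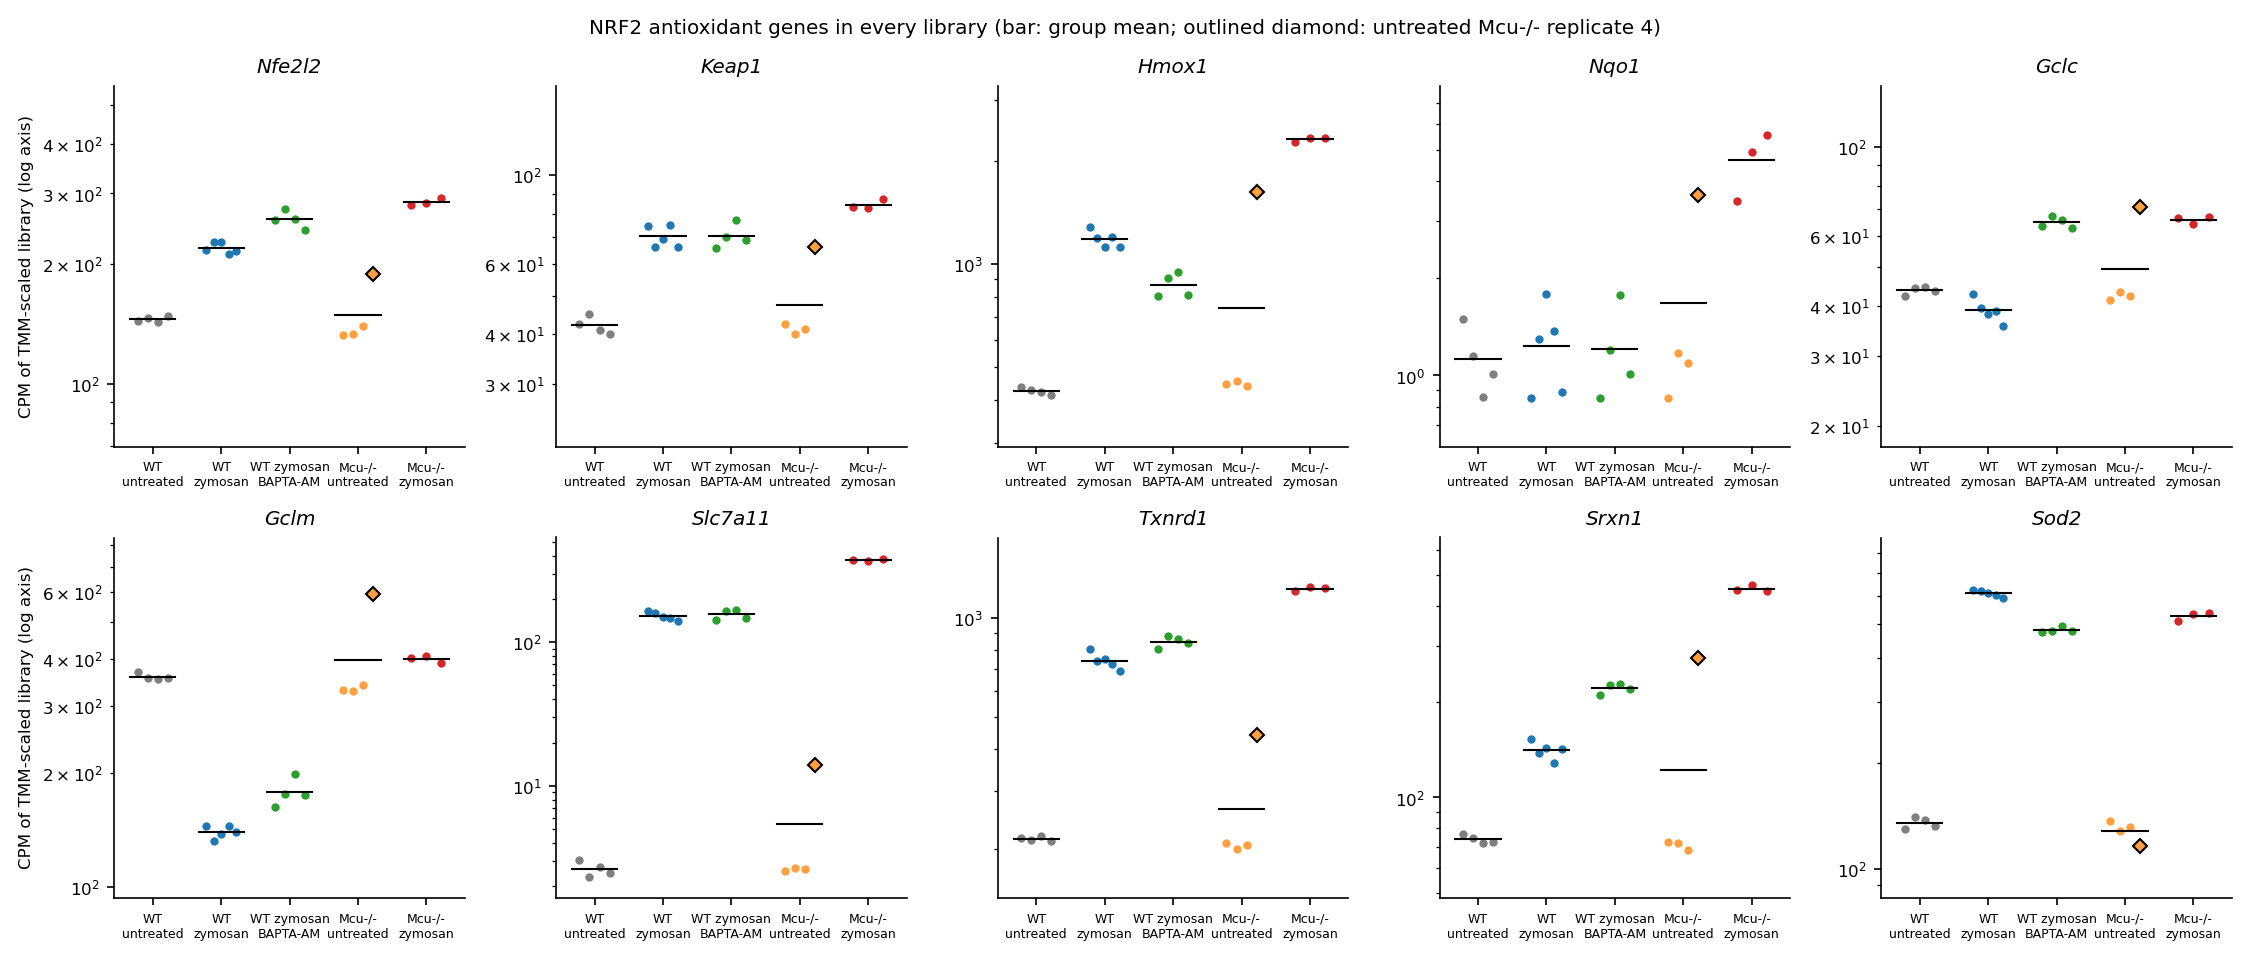
Level of each of the 10 NRF2 antioxidant genes in each of the 20 libraries, as CPM of the TMM-scaled library on log axes that differ between panels, with a bar at the group mean and untreated Mcu-/- replicate 4 as an outlined diamond. Slc7a11 goes from 2.33 to 3.03 CPM in WT untreated libraries to 140.5 to 164 with zymosan, while Gclm goes from 354 to 368 down to 132 to 145.

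The first comparison asked what zymosan did to these genes in WT macrophages. The response was split: the cystine transporter *Slc7a11*, mitochondrial superoxide dismutase *Sod2*, thioredoxin reductase *Txnrd1* and heme oxygenase *Hmox1* rose from 2.78-fold to 57.3-fold, while *Gclm*, which encodes the modifier subunit of the enzyme that makes the glutathione precursor, fell 2.57-fold. *Nfe2l2*, its inhibitor *Keap1* and the sulfiredoxin gene *Srxn1* rose by smaller amounts. *Nqo1* and *Gclc* were not called. Of the 10 genes, 7 were called higher and 1 lower, where 32.4% of all genes tested were called higher and 36.8% lower, and 7 and 2 without untreated *Mcu*-/- replicate 4, where 37.2% and 41.3% of all genes were. With all libraries the median log2 fold change of the 10 was 0.84 against −0.04 over all genes.

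Among the regulators, *Nfe2l2* had 144, 147, 143 and 148 CPM in the 4 WT untreated libraries and 216, 227, 227, 212 and 215 in the 5 WT zymosan libraries. Every zymosan library was above every untreated one, and the log2 fold change was 0.60 ± 0.08 SE (adjusted p = 1.31e-06 in edgeR). *Keap1* had 42.5, 44.9, 41.1 and 40.1 CPM untreated and 74.8, 66.4, 69.4, 75.3 and 66.3 with zymosan, higher by 0.74 ± 0.11 SE on the log2 scale (adjusted p = 7.43e-06 in edgeR). The gene for the factor and the gene for its inhibitor thus both rose, by 1.51-fold and 1.67-fold, with no overlap between the groups.

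*Slc7a11* encodes the light chain of the antiporter that brings in cystine, the source of cysteine for glutathione. It had 3.03, 2.33, 2.74 and 2.47 CPM in WT untreated libraries, on 44 to 71 counts, and 164, 158, 151, 147 and 140.5 with zymosan. The groups did not come near each other, and the log2 fold change was 5.84 ± 0.41 SE (adjusted p = 1.99e-10 in edgeR). The subunit genes of glutamate-cysteine ligase, the enzyme of the next step, did not follow. *Gclm* had 368, 356, 354 and 356 CPM untreated and 144, 132, 138, 145 and 139 with zymosan, so every zymosan library was below every untreated one (log2 fold change −1.36 ± 0.13 SE, edgeR adjusted p = 1.41e-08). *Gclc*, the catalytic subunit, had 42.4, 44.4, 44.6 and 43.6 CPM untreated and 42.9, 39.6, 38.2, 38.9 and 35.6 with zymosan. Of these zymosan libraries 4 lay below all untreated ones and 1 lay among them, and the log2 fold change of −0.16 (SE 0.12) was not called in all 20 libraries (edgeR adjusted p = 0.215) and was called without untreated *Mcu*-/- replicate 4 (−0.17, edgeR adjusted p = 0.000858).

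In the thioredoxin branch, *Txnrd1*, which passes electrons from NADPH to thioredoxin, had 216, 212, 218 and 211 CPM untreated and 806, 739, 752, 723 and 689 with zymosan. *Srxn1*, which restores overoxidised peroxiredoxins, had 76.6, 74.6, 72.0 and 72.6 CPM untreated and 153, 138, 143, 128 and 142 with zymosan. Neither gene overlapped between groups, and their log2 fold changes were 1.79 (SE 0.17, edgeR adjusted p = 2.62e-08) and 0.93 (SE 0.30, edgeR adjusted p = 0.0102). *Hmox1*, the enzyme that opens the heme ring and frees its iron, had 437, 428, 423 and 413 CPM untreated and 1282, 1189, 1116, 1200.2 and 1118 with zymosan. All zymosan libraries again lay above the untreated ones (log2 fold change 1.47 ± 0.29 SE, edgeR adjusted p = 0.000174). *Nqo1*, a quinone reductase often used as a readout of NRF2, was at a low level in both groups. It had 1.49, 1.15, 0.856 and 1.01 CPM untreated and 0.854, 1.29, 1.79, 1.37 and 0.887 with zymosan, on 15 to 35 counts per library, and the groups overlapped (log2 fold change 0.14 ± 0.39 SE, edgeR adjusted p = 0.769). *Sod2* had 129.7, 141, 138 and 133 CPM untreated and 626, 621, 613, 606 and 594 with zymosan, well apart, and a log2 fold change of 2.18 ± 0.05 SE (adjusted p = 2.48e-18 in edgeR). The libraries did not overlap for 7 genes above and 1 below, where 33.1% and 36.4% of all genes tested did so. Scaling by library totals instead of TMM factors moved the median of all genes from −0.04 to −0.54 and left 5 of the 10 called higher and 2 lower, where 15.7% and 68.5% of all genes were: the log2 fold changes of *Nfe2l2* and *Srxn1* became 0.10 and 0.44, not called, and that of *Gclc* became −0.66, called.

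**Figure D3:**
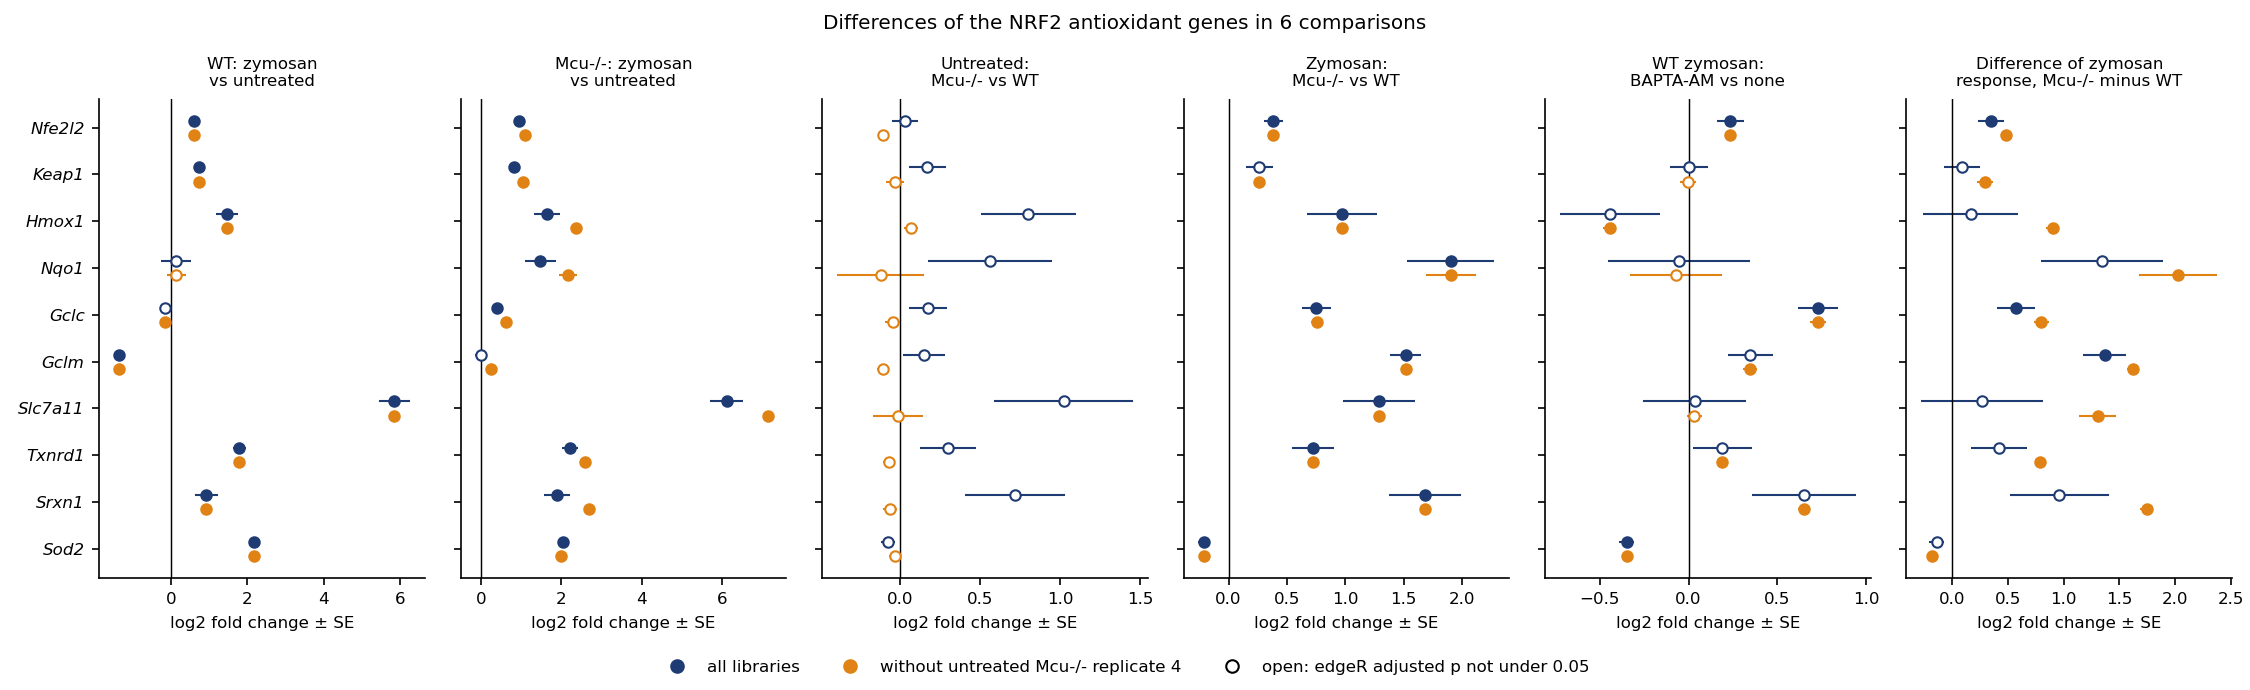
Log2 fold change ± SE of the 10 genes in 6 comparisons from edgeR's quasi-likelihood fit, with the fit of all 20 libraries and the fit without untreated Mcu-/- replicate 4 drawn side by side. In WT cells with zymosan against untreated, 7 genes were called higher and Gclm lower at −1.36, and in Mcu-/- against WT cells with zymosan only Sod2 was called lower, at −0.21.

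The other genes of the pathway were taken from hand-written lists of 106 genes tested, none of them among the 10. With zymosan in WT cells 49 of the 106 were called higher and 19 lower, with a median log2 fold change of 0.18. Over all genes tested 32.4% were called higher and 36.8% lower, with a median of −0.04. Whether a list differed from all genes was not tested. The regulators and partners of NRF2 moved most, with 8 of 12 higher and 2 lower: *Maff* (3.88) and *Mafk* (3.52), small MAF partners, and *Bach1* (2.78), a repressor that competes for the same elements, were higher, and *Btrc* (−0.49) and *Dpp3* (−0.32) lower. Of 20 genes of glutathione synthesis and use, 7 were higher, among them *Slc3a2* (1.18), the heavy chain partner of the *Slc7a11* product, and glutathione reductase *Gsr* (0.75), and 2 were lower. Of 16 genes of the thioredoxin and peroxiredoxin system 7 were higher, among them *Prdx1* (1.40) and *Prdx5* (1.11), and 3 lower, namely *Sesn1* (−2.75), *Txnip* (−0.82), whose product binds thioredoxin, and *Sesn2* (−0.80). The heme and iron list had 5 of 15 higher, among them the ferritin chains *Fth1* (0.69) and *Ftl1* (0.46), and 4 lower, among them *Alas1* (−0.88), the first enzyme of heme synthesis. The shares called higher on this list and on the glutathione list lay close to the 32.4% of all genes. Their shares called lower lay under the 36.8% of all genes. Of 12 genes of NADPH supply 6 were higher, among them *Pgd* (0.34) and *G6pdx* (0.28) of the pentose phosphate pathway. The detoxification list had 10 of 23 higher and 8 lower, among the latter *Osgin1* (−2.66). Metallothioneins *Mt2* (2.76) and *Mt1* (1.53) led the list of other superoxide, metal and redox genes, where 6 of 8 were higher. Of 17 NF-kB response genes, listed beside the pathway because of *Sod2*, all 17 were higher, with a median of 2.75. These values are log2 fold changes of genes called by edgeR at an adjusted p under 0.05.

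**Figure D4:**
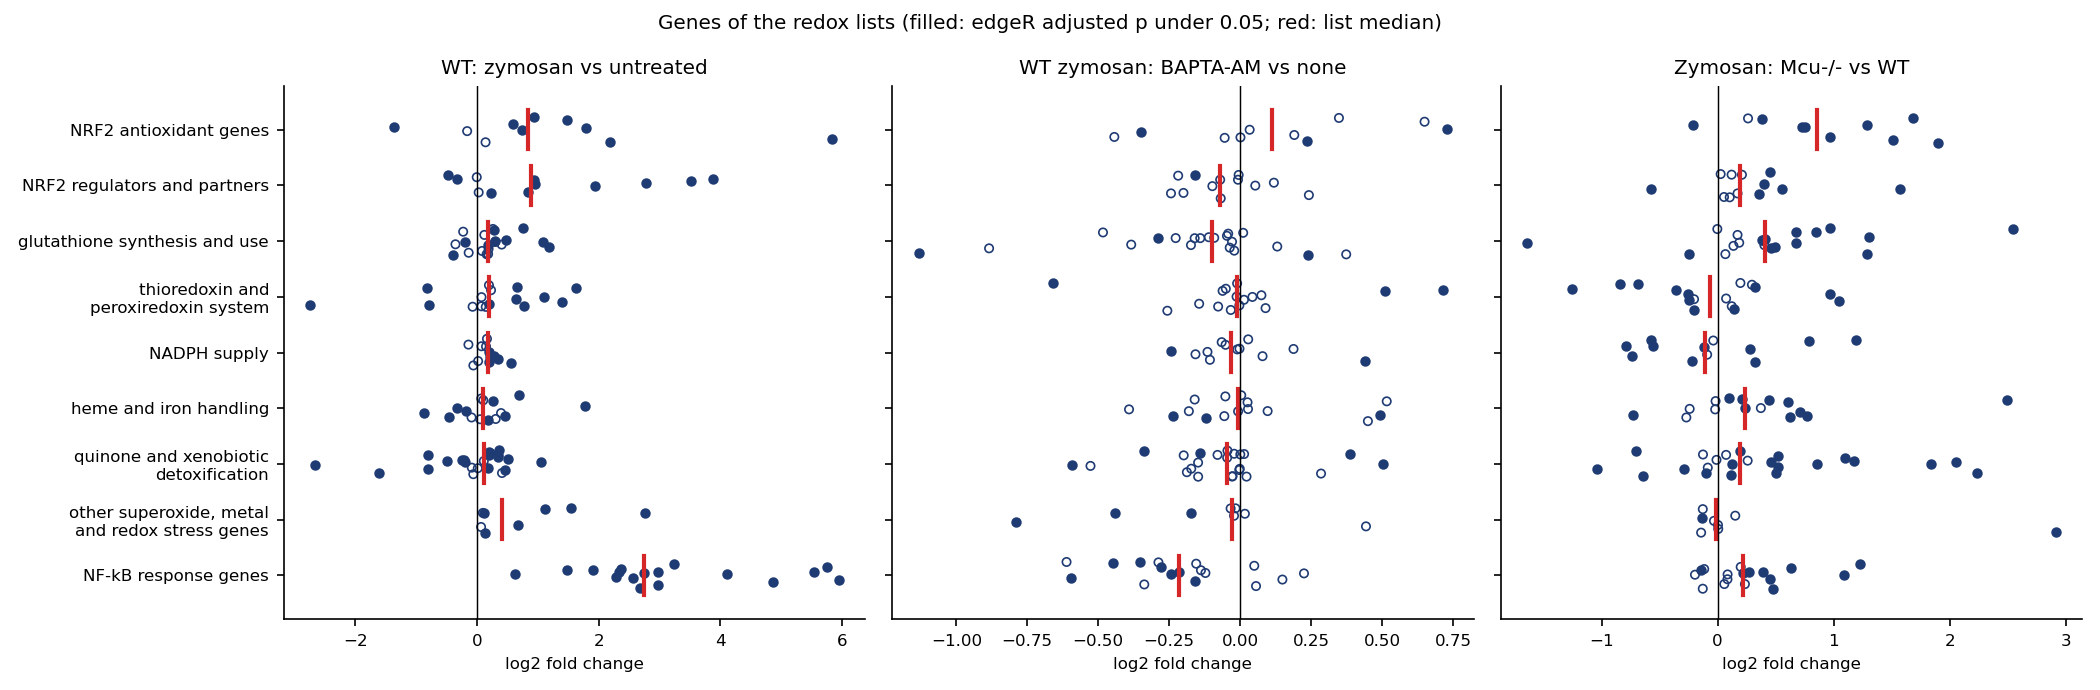
Log2 fold changes of the tested genes of each redox list in the zymosan, genotype and BAPTA-AM comparisons, with 1 point per gene, filled where edgeR's adjusted p was under 0.05, and a red mark at the list's median. With zymosan in WT cells the medians run from 0.10 for heme and iron handling to 0.89 for the NRF2 regulators, and the NF-kB genes stand at 2.75.

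The next comparison asked what the intracellular Ca2+ chelator changed in WT macrophages given zymosan. BAPTA-AM did not move the family as a block. The glutamate-cysteine ligase subunit gene *Gclc* was higher by 1.66-fold and *Nfe2l2* slightly higher, *Sod2* was lower by 1.27-fold, and *Slc7a11*, *Keap1* and *Nqo1* differed by less than their errors. With all 20 libraries 2 of the 10 were called higher and 1 lower, where 6.43% of all genes were called higher and 6.33% lower. Once untreated *Mcu*-/- replicate 4 was left out, though it belongs to neither group, 5 were called higher and 2 lower, where 15.3% and 16.5% of all genes were.

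*Gclc* had 63.3, 67.2, 65.7 and 62.8 CPM in the 4 BAPTA-AM libraries beside 35.6 to 42.9 in the 5 WT zymosan libraries. The loaded libraries were all above the unloaded ones and also above the 42.4 to 44.6 CPM of untreated cells, and the log2 fold change against unloaded cells was 0.73 (SE 0.11, edgeR adjusted p = 0.000258). Its partner *Gclm* had 162, 176, 198 and 175 CPM with BAPTA-AM beside 132 to 145 without. These groups did not overlap either, and the log2 fold change of 0.35 (SE 0.13) was not called with all libraries (edgeR adjusted p = 0.0832) and was called without replicate 4 (edgeR adjusted p = 1.53e-09). *Srxn1* had 209.7, 226, 228 and 219.9 CPM with BAPTA-AM beside 128 to 153 without, all above, with a log2 fold change of 0.65 ± 0.29 SE (adjusted p = 0.169 in edgeR, and 1.91e-17 without replicate 4). *Nfe2l2* had 258, 274, 259.7 and 244 CPM beside 212 to 227, again all above (log2 fold change 0.24 ± 0.08 SE, edgeR adjusted p = 0.049). That call lay at the threshold and was lost with DESeq2's size factors, with no filter on low counts and with the replicate number as a block, where the log2 fold changes were 0.22, 0.24 and 0.23, and when any 1 of 17 of the 20 libraries was left out, with edgeR adjusted p up to 0.174 over all alternatives.

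*Hmox1* went the other way. It had 805, 912, 946 and 812 CPM with BAPTA-AM beside 1116 to 1282 without, all below, and its log2 fold change of −0.44 (SE 0.28) was not called with all libraries (edgeR adjusted p = 0.365) and was called without replicate 4 (edgeR adjusted p = 2.11e-12). *Sod2* had 473, 479, 493 and 477 CPM beside 594 to 626, also all below, and was called in both fits (log2 fold change −0.35 ± 0.04 SE, edgeR adjusted p = 2.39e-05 with all libraries). *Slc7a11*, the gene zymosan raised most, had 143, 165, 168 and 146 CPM with BAPTA-AM beside 140.5 to 164 without. Its groups overlapped and the log2 fold change was 0.03 with an SE of 0.29, or 0.04 without replicate 4 (edgeR adjusted p = 0.971 and 0.608). *Txnrd1* had 804, 879, 863 and 841 CPM beside 689 to 806, with 1 loaded library inside the unloaded range (log2 fold change 0.19, edgeR adjusted p = 0.544, and 5.08e-06 without replicate 4). *Keap1* at 65.8, 70.2, 77.3 and 68.8 CPM and *Nqo1* at 0.853, 1.20, 1.78 and 1.01 overlapped the unloaded libraries, with log2 fold changes of 0.00 and −0.05 (SE 0.11 and 0.40). The groups did not overlap for 4 of the 10 genes above and 2 below, where 11.1% and 13.2% of all genes did so.

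Against untreated WT cells, the BAPTA-AM libraries with zymosan had 8 of the 10 genes called higher and *Gclm* lower (log2 fold change −1.01, edgeR adjusted p = 2.1e-06), where 31.9% and 34.2% of all genes were called, and the same genes did not overlap between libraries, where 34.0% of all genes lay above and 35.6% below. *Gclc*, which unloaded cells did not raise, stood 0.56 above untreated cells on the log2 scale (edgeR adjusted p = 0.000407), and *Nqo1* was not called (0.08, edgeR adjusted p = 0.874). Under library totals *Hmox1* (0.60, edgeR adjusted p = 0.0585) and *Gclc* (0.13, 0.251) lost their calls, where 15.8% of all genes were called higher and 63.9% lower. Both of these comparisons share the BAPTA-AM libraries. Of the 106 other pathway genes, edgeR called 7 higher (6.60%) and 13 lower (12.3%) with BAPTA-AM, beside the 6.43% and 6.33% of all genes given above. Without replicate 4 the counts were 15 (14.2%) and 30 (28.3%), beside 15.3% and 16.5% of all genes. Those called higher in the fit of all libraries included *Gsr* (0.24), *Txnip* (0.72), *Sesn3* (0.51), the malic enzyme gene *Me1* (0.44) and the transferrin receptor gene *Tfrc* (0.49), and those called lower included the glutathione-degrading enzyme gene *Chac1* (−1.13), *Sesn2* (−0.66), *Mt2* (−0.79), *Mt1* (−0.44) and the transporter gene *Abcc4* (−0.59), as log2 fold changes. Of the 17 NF-kB genes edgeR called 7 lower, and without replicate 4 it called 13 lower and 2 higher.

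The comparison of untreated *Mcu*-/- with untreated WT macrophages asked whether the family differed at rest. In 3 of the 4 *Mcu*-/- libraries all 10 genes were close to WT, and replicate 4 was not. None of the 10 was called by edgeR (0 of 10), where 0.350% of all genes were called, and DESeq2's Wald test also called 0. The 4 *Mcu*-/- libraries lay above all WT libraries for *Hmox1* alone, where 3.38% of all genes lay above and 3.71% below. At an unadjusted p under 0.05 edgeR had 3, *Hmox1* (log2 fold change 0.80), *Slc7a11* (1.02) and *Srxn1* (0.72). Without replicate 4 edgeR again called 0 of 10, where 3.35% of all genes were called, and 2 genes had an unadjusted p under 0.05, *Nfe2l2* (−0.10) and *Gclm* (−0.11).

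In *Mcu*-/- replicates 1 to 3, *Nfe2l2* had 133, 133 and 139.7 CPM, *Keap1* 42.5, 40.2 and 41.3, and *Hmox1* 445, 454 and 440.2. The enzymes of glutathione synthesis were as near to WT, *Gclc* at 41.4, 43.4 and 42.4 CPM and *Gclm* at 331, 329 and 340.0, and so was *Slc7a11* at 2.55, 2.70 and 2.63. *Txnrd1* had 208, 200.5 and 206 CPM, *Srxn1* 72.2, 72.1 and 68.2, *Sod2* 137, 128 and 132, and *Nqo1* 0.850, 1.17 and 1.10. Without replicate 4 the 3 libraries lay above all WT libraries for *Hmox1* and below them for *Nfe2l2*, *Gclm* and *Txnrd1*, that is 1 gene above and 3 below where 6.69% and 7.15% of all genes did so. The log2 fold change largest in size was that of *Nqo1*, −0.12 with an SE of 0.27.

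Replicate 4 held 189 CPM of *Nfe2l2*, 66.0 of *Keap1*, 1626 of *Hmox1*, 3.61 of *Nqo1*, 70.8 of *Gclc*, 591 of *Gclm*, 13.9 of *Slc7a11*, 443 of *Txnrd1*, 275 of *Srxn1* and 116 of *Sod2*. It was above replicates 1 to 3 for 9 of the 10 genes and below them for *Sod2*. Relative to the mean of replicates 1 to 3 it had 5.30 times the *Slc7a11*, 3.88 times the *Srxn1*, 3.64 times the *Hmox1*, 3.47 times the *Nqo1* and 2.17 times the *Txnrd1*, and 1.40 to 1.77 times the level of *Nfe2l2*, *Keap1*, *Gclc* and *Gclm*. *Sod2* was 0.879 times their mean, and the zymosan response gene *Il6* was at 0.595 CPM beside 0.533 to 0.767 in replicates 1 to 3. The library was labelled untreated. Its mitochondrial share, *Lyz2*, *Cd68* and fibroblast sum differed from the other libraries in the same direction as those of the 3 *Mcu*-/- zymosan libraries. The mitochondrial share lay within their range. The other values lay below it, at 2823 CPM of *Lyz2* against 3217 to 3280, 971 of *Cd68* against 1142 to 1175, and a fibroblast sum of 52.8 against 77.7 to 93.8.

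**Figure D5:**
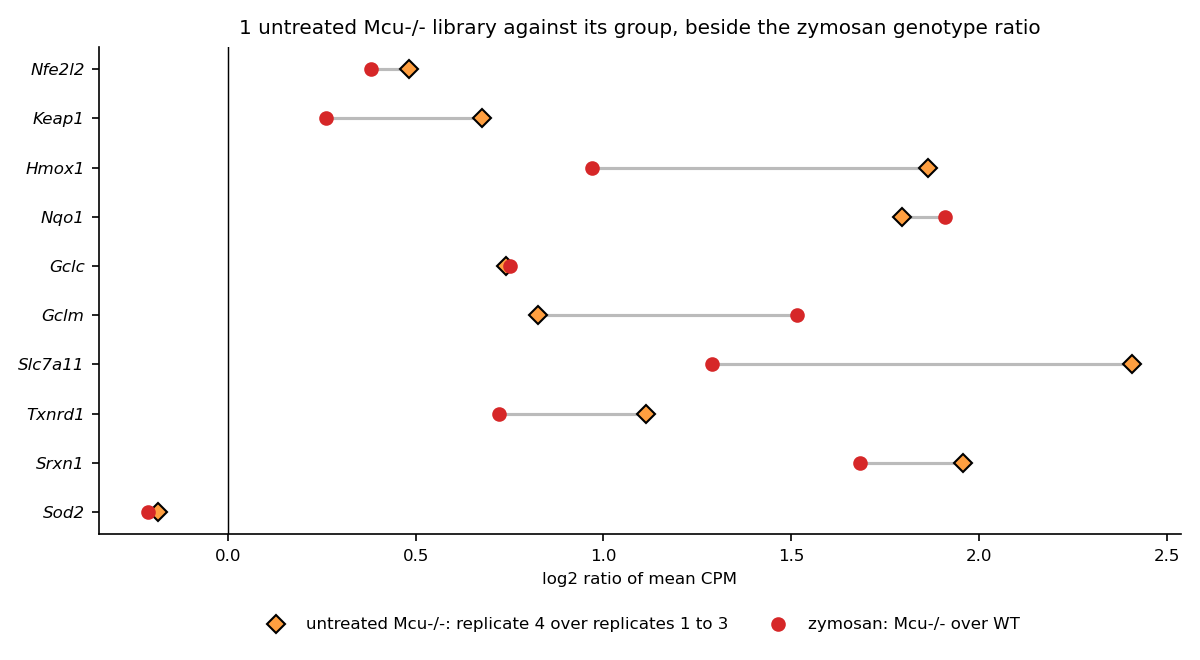
Log2 ratio of untreated Mcu-/- replicate 4 to the mean of replicates 1 to 3 for each of the 10 genes, beside the log2 ratio of Mcu-/- to WT cells with zymosan. For Hmox1 the ratio of replicate 4 is 1.87, for Srxn1 1.96 and for Slc7a11 2.41, and only Sod2 lies below 0, at −0.19.

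The comparison of *Mcu*-/- with WT macrophages, both given zymosan, asked how the loss of *Mcu* changed the stimulated level. Nearly the whole family was higher in the *Mcu*-/- libraries: *Nqo1* by 3.74-fold, *Srxn1* by 3.21-fold, *Gclm* by 2.86-fold, *Slc7a11* by 2.44-fold, *Hmox1* by 1.96-fold, *Gclc* by 1.68-fold, *Txnrd1* by 1.65-fold and *Nfe2l2* by 1.30-fold. *Sod2* was 1.16-fold lower. With all libraries 8 of the 10 were called higher and 1 lower, where 31.8% of all genes were called higher and 30.3% lower. Without untreated *Mcu*-/- replicate 4 the calls were 9 and 1, where 36.4% and 33.7% were. The median log2 fold change of the 10 was 0.86 against 0.02 over all genes. These are the 3 libraries that stood apart from WT in markers, in bulk RNA fewer cells of a type and less RNA per cell cannot be told apart, and the part of either in these differences was not tested.

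*Nqo1*, low in the WT groups, had 3.47, 4.92 and 5.57 CPM in the *Mcu*-/- zymosan libraries, on 59 to 112 counts, beside 0.854 to 1.79 in WT. All 3 were above WT and the log2 fold change was 1.90 ± 0.37 SE (adjusted p = 0.00027 in edgeR). *Srxn1* had 448, 464 and 444 CPM beside 128 to 153, also apart, and a log2 fold change of 1.68 ± 0.31 SE (adjusted p = 0.00016 in edgeR). *Hmox1* had 2271, 2337 and 2325 CPM beside 1116 to 1282, and every *Mcu*-/- library exceeded every WT library (log2 fold change 0.97 ± 0.30 SE, edgeR adjusted p = 0.00913). *Txnrd1* had 1206, 1238 and 1229.5 CPM beside 689 to 806, again apart (log2 fold change 0.72 ± 0.18 SE, edgeR adjusted p = 0.00179).

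Of the glutathione genes, *Gclm* had 401, 407 and 389 CPM in *Mcu*-/- cells with zymosan beside 132 to 145 in WT cells with zymosan. The *Mcu*-/- level was above that of untreated WT cells, from which WT cells with zymosan had fallen, and the log2 fold change between genotypes was 1.52 (SE 0.14, edgeR adjusted p = 5.4e-08). *Gclc* had 66.3, 64.3 and 66.7 CPM beside 35.6 to 42.9 (log2 fold change 0.75 ± 0.12 SE, edgeR adjusted p = 5e-05), and *Slc7a11* had 369.7, 368 and 378 CPM beside 140.5 to 164 (log2 fold change 1.29 ± 0.31 SE, edgeR adjusted p = 0.00151). Both genes of the ligase and the cystine transporter were thus higher, with no overlap between libraries.

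*Nfe2l2* itself had 281, 284 and 292 CPM beside 212 to 227, all above, with a log2 fold change of 0.38 ± 0.08 SE (adjusted p = 0.000643 in edgeR). *Keap1* had 83.2, 82.7 and 87.4 CPM beside 66.3 to 75.3, which did not overlap, and its log2 fold change of 0.26 (SE 0.12) was called without untreated *Mcu*-/- replicate 4 (edgeR adjusted p = 7.23e-06) and not with it (0.0589), and narrowly also without untreated *Mcu*-/- replicate 2 (0.0477). *Sod2* had 512, 536 and 537 CPM beside 594 to 626, all below (log2 fold change −0.21 ± 0.05 SE, edgeR adjusted p = 0.000786). The libraries did not overlap for 9 genes above and 1 below, where 33.1% and 30.9% of all genes did so. Of the 106 other pathway genes, 47 were higher (44.3%) and 23 lower (21.7%), where 31.8% of all genes were called higher and 30.3% lower. Higher were *Sqstm1* (1.57), whose product p62 binds KEAP1, *Gsta3* (2.55), *Prdx1* (1.04), *Taldo1* (1.19), the iron exporter gene *Slc40a1* (2.49), *Fth1* (0.71), *Akr1b8* (2.24) and *Aldh3a1* (1.84), and lower were *Bach1* (−0.57), *Gstp1* (−1.64), *Txnip* (−1.25), *G6pdx* (−0.79), *Nnt* (−0.74) and *Ephx1* (−1.04), as log2 fold changes of genes called by edgeR. By list, 11 of 20 glutathione genes were higher and 2 lower, 9 of 15 heme and iron genes were higher and 1 lower, and 4 of 16 thioredoxin genes were higher and 7 lower. The detoxification list had 13 of 23 higher and 5 lower, and the NRF2 regulators 5 of 12 higher and 1 lower. NADPH supply had 4 of 12 higher and 6 lower, and the other redox genes 1 of 8 higher and 1 lower.

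Within *Mcu*-/- macrophages, zymosan against untreated gave 9 of the 10 genes called higher by edgeR, the same 9 that had an unadjusted p under 0.05, where 34.3% of all genes were called higher and 39.4% lower. The exception was *Gclm*, at 401, 407 and 389 CPM with zymosan beside 331, 329, 340.0 and 591 untreated, so that replicate 4 lay above all zymosan libraries (log2 fold change 0.01, edgeR adjusted p = 0.977). Without replicate 4 *Gclm* was called higher too (0.26, edgeR adjusted p = 6.99e-07), so that all 10 were, where 39.2% of all genes were called higher and 42.4% lower. All 10 also lay above the untreated libraries then with no overlap, where 39.8% of all genes did. The untreated libraries of that fit lay apart from the zymosan libraries in the markers given above, and the 2 differences cannot be told apart there. Against replicate 4 alone, the mean of the zymosan libraries was 0.676 times its level for *Gclm* and 0.929 times for *Gclc*, and higher for the other genes. *Slc7a11* rose 69.0-fold with all libraries and 141-fold without replicate 4, *Txnrd1* by 2.21 and 2.58 on the log2 scale, *Srxn1* by 1.89 and 2.67, *Hmox1* by 1.64 and 2.37 and *Sod2* by 2.04 and 2.00. *Nqo1*, which zymosan did not change in a call in WT cells, had a log2 fold change of 1.48 with all libraries (edgeR adjusted p = 0.00167) and 2.16 without replicate 4. *Gclc*, called at 0.41 with all libraries (edgeR adjusted p = 0.00774), was not called in a fit of these groups alone (0.43, edgeR adjusted p = 0.0746). With all libraries 7 genes did not overlap between zymosan and untreated, where 29.8% of all genes lay above. Under library totals the log2 fold changes of *Gclc* and *Gclm* turned negative, from 0.41 to −0.10 and from 0.01 to −0.51, with replicate 4 included.

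The last comparison asked whether the response to zymosan itself differed between the genotypes, as an interaction in the same fit. With all libraries 3 of the 10 genes were called, a share below the 35.2% of all genes called in this test, of which 1779 had a higher response in *Mcu*-/- cells and 2343 a lower one. The log2 response of *Gclm* was higher in *Mcu*-/- than in WT by 1.37 (SE 0.19, edgeR adjusted p = 3.67e-05), that of *Gclc* by 0.58 (SE 0.17, edgeR adjusted p = 0.0155) and that of *Nfe2l2* by 0.35 (SE 0.12, edgeR adjusted p = 0.0259). The fall of *Gclm* in WT cells (−1.36) stood beside a log2 fold change of 0.01 in *Mcu*-/- cells, and under library totals −1.85 stood beside −0.51, with a difference of 1.35. The call of *Nfe2l2* was lost without untreated *Mcu*-/- replicate 1, 2 or 3 or the *Mcu*-/- zymosan library of column 5 (edgeR adjusted p = 0.0580, 0.0579, 0.0541 and 0.0606).

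For the other 7 genes the difference of the log2 responses was 0.09 for *Keap1*, 0.17 for *Hmox1*, 1.34 for *Nqo1*, 0.27 for *Slc7a11*, 0.42 for *Txnrd1*, 0.96 for *Srxn1* and −0.14 for *Sod2*, with edgeR adjusted p from 0.0627 to 0.785. *Nqo1* was called without WT zymosan replicate 3 (edgeR adjusted p = 0.0475) and by DESeq2's Wald test (0.0464). All 10 were called without untreated *Mcu*-/- replicate 4, where 31.0% of all genes had a higher and 29.3% a lower response. There the response was higher in *Mcu*-/- cells for 9 genes, by 0.49 for *Nfe2l2*, 0.90 for *Hmox1*, 1.30 for *Slc7a11*, 1.62 for *Gclm*, 1.75 for *Srxn1* and 2.02 for *Nqo1* among them, and lower for *Sod2* by −0.18 (edgeR adjusted p = 0.00075). How many genes of the family differed in their response therefore rested on that 1 library. Without it, the untreated *Mcu*-/- libraries lay apart from the *Mcu*-/- zymosan libraries in the markers given above. That difference and a genotype difference of the response cannot be told apart there. Untreated replicate 4 was itself above replicates 1 to 3 for 9 of the 10 genes, with *Srxn1* at 3.88 times their mean, and below them for *Sod2*.

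Over the 20 libraries, the levels of *Slc7a11* and *Txnrd1* had the highest correlation among the 10 (Pearson r of log2 CPM 0.993), followed by *Nfe2l2* and *Txnrd1* (0.985), and *Gclm* and *Sod2* the lowest (−0.704). Of all genes tested, the level most like that of *Slc7a11* was *Sh3bgrl2* (r = 0.999), of *Txnrd1* *Lrrfip2* (0.997), of *Sod2* *Rsbn1l* (0.997), of *Hmox1* *Nrp2* (0.994), of *Srxn1* *Mif* (0.993), of *Keap1* *Lrch3* (0.993), of *Nfe2l2* *Slc16a10* (0.991) and of *Gclm* *1190002N15Rik* (0.990). *Gclc* had *Tfrc* (0.953) and *Nqo1* *Mad2l2* (0.934) nearest, the lowest of the 10. These correlations describe libraries that share groups, treatments and scaling factors, and the libraries of a group are not spread evenly along them.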

How the data were processed

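RNA-seq of 20 libraries was analysed from 1 table of counts. The authors checked reads with FastQC and MultiQC, trimmed adaptors with cutadapt, aligned to mm10 with STAR and counted reads per gene with HTSeq, and deposited whole, unnormalised counts; their own tests used DESeq2. The sequenced cells' BAPTA-AM and zymosan doses are not given in the sources used here. Columns were matched to samples by their labels, and 0 columns of per-sample values were left unused. The 3 *Mcu*-/- zymosan columns are numbered 3 to 5 and their sample labels 1 to 3, so they carry no number here and stayed out of the replicate block. Members and gene lists were chosen with earlier results of these data known.

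Counts were fitted in R 4.3.3 with edgeR 4.0.16 (filterByExpr, TMM factors, quasi-likelihood test, 1 coefficient per group, all 20 libraries, 11707 genes, or 11666 without untreated *Mcu*-/- replicate 4), with Benjamini-Hochberg adjustment over all genes tested. Fits were tested on simulated data drawn with the spread estimated without untreated *Mcu*-/- replicate 4 and changes planted in the BAPTA-AM group only. Those data held no library that stood apart as replicate 4 did. Correlations used log2 CPM with a prior count of 2, and RPKM the union of GENCODE M21 exons. Library sizes of 15.7 to 28.1 M after TMM correction put 1 CPM at about 16 to 28 counts. Text names all 10 members, the largest called changes of each pathway list and, per member, the genes with the most similar level. Alternatives were DESeq2 1.42.0 size factors and Wald test, no filter, at least 10 counts in every library, fits of the groups compared alone, the replicate block, each library left out in turn and, chosen after seeing the data, library totals and fits without the libraries that stood apart. Figures were drawn with matplotlib 3.10.9 in Python 3.11.15.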

Additional observations from a re-analysis of the deposited data

Results flagged for a closer look

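In untreated *Mcu*-/- macrophages, replicate 4 lay farther from the other 3 libraries than Dixon's 95% limit for 4 values allows in 9 of the 10 genes. Its CPM was 189 for *Nfe2l2*, 66.0 for *Keap1*, 1626 for *Hmox1*, 3.61 for *Nqo1*, 70.8 for *Gclc*, 591 for *Gclm*, 13.9 for *Slc7a11*, 443 for *Txnrd1* and 275 for *Srxn1*. Of 40 gene and group combinations of 4 or 5 libraries examined, these were the 9 past the limit. For a single combination chance gives about 1 in 20. All 9 came from 1 library and share its scaling factor, so they are not independent and cannot be set against that rate. The zymosan response differed between the genotypes, by the interaction test of edgeR, for *Nfe2l2* (log2 difference 0.35, *Mcu*-/- minus WT), *Gclc* (0.58) and *Gclm* (1.37). For each of these 3 genes replicate 4 is part of the untreated *Mcu*-/- mean.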

How the results depend on the processing

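The number of the 10 genes called changed by more than 1.5 times in only 2 comparisons. For BAPTA-AM with zymosan against zymosan it was 3 with all libraries, 7 in a fit of the groups compared alone and 7 in a fit of 16 libraries chosen after seeing the data, where 12.8%, 32.2% and 31.7% of all genes were called. For the difference of responses between genotypes it was 3, and 10 in a fit of its own groups less untreated *Mcu*-/- replicate 4, also chosen later, where 35.2% and 60.4% of all genes were called. With each library left out in turn the counts ran from 8 to 9 for zymosan in WT, 9 to 10 for zymosan in *Mcu*-/-, 0 to 0 for the untreated genotypes, 9 to 10 for the genotypes with zymosan, 2 to 7 for BAPTA-AM against zymosan, 9 to 9 for BAPTA-AM with zymosan against untreated WT, and 2 to 10 for the difference of responses; the 7 and the last 10 came without untreated *Mcu*-/- replicate 4. Library totals turned the direction of *Gclc* (−0.10) and *Gclm* (−0.51) in *Mcu*-/- cells with zymosan against untreated, and put the median of all genes at −0.58 there and at −0.54 in WT, with 1834 genes higher and 8018 lower in WT in place of 3790 and 4303. With the replicate number as a block, over 17 libraries whose numbers did not pair (correlations of deviations from −0.05 to 0.06 over 24 same-numbered pairs), the counts were 8 for zymosan in WT, 0 for the untreated genotypes, 2 for BAPTA-AM against zymosan and 9 for BAPTA-AM with zymosan against untreated WT, and the 1 call lost was *Nfe2l2* with BAPTA-AM. The cause of these changes was not tested. Depth limited *Nqo1* most, with 15 to 35 counts per library in WT zymosan.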
